A study of Sus scrofa with 12 samples.

Results

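The small heat shock protein genes HSPB1, HSPB6 and CRYAB were followed in pig muscle over the first day after slaughter. Their members are all probe sets whose single gene symbol in the platform annotation is HSPB1, HSPB6 or CRYAB, which gave 5 probe sets of 3 genes, out of 24123 probe sets and 6765 genes in all. HSPB1 had 1 probe set (Ssc.11197.1.S1_at). HSPB6 had 2, called here the brighter (Ssc.13823.1.A1_at) and the dimmer (Ssc.13823.2.S1_at), as had CRYAB (Ssc.10931.1.S1_at and Ssc.19588.2.A1_at). The tissue was semimembranosus, a thigh muscle, taken from 3 female commercial hybrid pigs of about 160 kg that came from 1 farm, were stunned with CO2 and had no further treatment. Portions of the left leg of every pig were cut 20 min, 2 h, 6 h and 24 h after death, as the carcass cooled to 4 °C. Each of the 12 portions went to its own one-colour Affymetrix array, so every time has 3 arrays, 1 from each pig. The portions were whole muscle, which holds vessels, connective tissue, fat and blood cells beside muscle fibres.

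Small heat shock proteins are chaperones that share an alpha-crystallin domain, assemble into oligomers and hold unfolding proteins without using ATP. Striated muscle is rich in them, and there they bind actin, desmin and titin under stress. In meat science HSPB1, CRYAB and HSPB6 are followed as proteins that protect myofibrils and whose abundance has been linked with tenderness. HSPB1 (also called HSP27) is a target of the kinase MAPKAPK2 and acts on actin filaments. HSPB6 (HSP20) is a target of protein kinase A and binds 14-3-3 proteins. CRYAB (alpha-B crystallin) binds desmin and has been linked with inherited myofibrillar disease.

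The deposited values are log2 intensities made by RMA, a method that brings all arrays to 1 distribution, and array medians lay between 5.89 and 5.93 on that scale. The correlation of any pair of arrays over probe sets lay between 0.986 and 0.997. Fibre genes marked the tissue as skeletal muscle: the log2 level over the 12 arrays lay between 14.46 and 14.51 for the muscle creatine kinase gene CKM, 14.33 and 14.42 for MYLPF of fast fibres, 14.15 and 14.44 for MYH7 of slow fibres and 13.17 and 13.52 for desmin (DES). The highest value of any probe set was 14.89. The comparisons with 20 min share the same 3 arrays of 20 min.

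HSPB6 had the highest changes of the members after death. Its brighter probe set was on average about 1.6-fold higher at 2 h, 6 h and 24 h than at 20 min. All 3 pigs had this direction but not this size. The log2 change was 0.15 to 0.23 in pig 1 and 0.76 to 1.12 in pigs 2 and 3. The mean change did not pass the test over all probe sets. In such whole-muscle samples, a change in the share of a cell type and a change in RNA per cell cannot be told apart. HSPB1 and the brighter set of CRYAB stayed close to their 20 min level at every time. The dimmer CRYAB set had lower means after 20 min and did not pass either. After adjustment over 23999 probe sets 0 of the 5 member sets passed at 2 h, 6 h or 24 h in limma with pig as a block, against 0% of all probe sets at 2 h, 0% at 6 h and 0.00417% at 24 h. At an unadjusted p under 0.05, 2 of 5 were higher at 2 h (background 4.01%), 2 at 6 h (4.29%) and 1 at 24 h (6.41%), all of them HSPB6. Lower at that p were 1 of 5 at 2 h (background 3.94%), 1 at 6 h (4.54%) and 0 at 24 h (6.67%), in each case the dimmer CRYAB set. Higher in 3 of 3 pigs were 2 of 5 sets at 2 h (background 13.8%), 2 at 6 h (15.4%) and 1 at 24 h (17.8%), and lower in 3 of 3 pigs were 1 at 2 h (14%), 1 at 6 h (16.6%) and 2 at 24 h (16.7%). Over the whole course, 3 of 5 had an unadjusted p under 0.05 in the F test (background 8.22%) and 0 of 5 passed (0.00417%). The 3 were both HSPB6 sets, which measure 1 gene on the same arrays, and the dimmer CRYAB set.

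**Figure D1:**
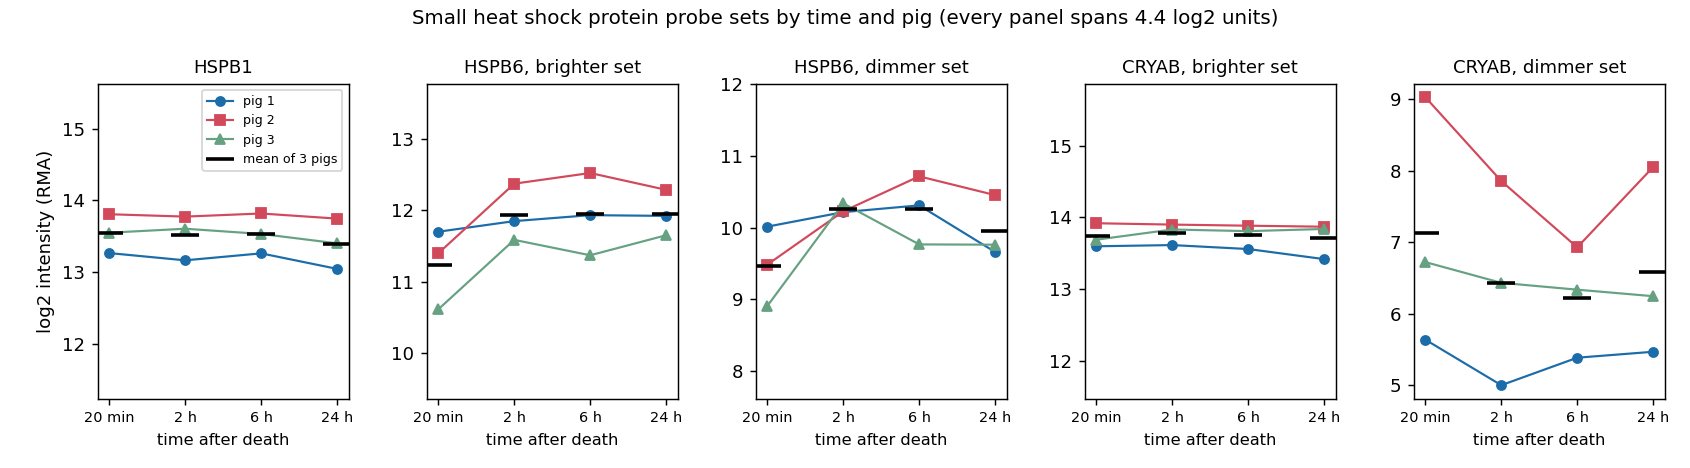
Log2 intensity (RMA) of the 5 member probe sets against time after death, with 1 line for each pig and a black bar for the mean of 3 pigs; all panels span the same number of log2 units. HSPB6 is lowest at 20 min in pigs 2 and 3, HSPB1 and the brighter CRYAB set are nearly flat, and the dimmer CRYAB set lies between 5.00 and 9.03 with pig 2 on top throughout.

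The brighter HSPB6 set had log2 levels of 11.70, 11.40 and 10.62 at 20 min in pigs 1, 2 and 3. The levels in the same order of pigs were 11.85, 12.37 and 11.59 at 2 h, 11.93, 12.52 and 11.37 at 6 h, and 11.92, 12.28 and 11.65 at 24 h. Pig 3 was the lowest pig at every time, pig 1 was the highest at 20 min and pig 2 the highest at each later time. The 20 min range overlapped that of each later time, because pig 1 at 20 min was above pig 3 later on. The log2 change against 20 min was 0.70 ± 0.48 at 2 h, 0.70 ± 0.45 at 6 h and 0.71 ± 0.43 at 24 h (SD, n = 3). These are 1.62-fold, 1.63-fold and 1.64-fold, with 95% intervals from limma of 1.27 to 2.07, 1.28 to 2.07 and 1.29 to 2.09. The limma adjusted p was 0.579 at 2 h, 0.463 at 6 h and 0.193 at 24 h. The unadjusted p was 0.00101, 9.47e-04 and 8.37e-04, which ranked 38, 47 and 103 among all probe sets. By size, the mean change was the 9th highest of 23999 at 2 h, the 9th at 6 h and the 2nd at 24 h.

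Pig 1 differed from the other pigs in the size of the HSPB6 change. Its log2 change was 0.15 at 2 h, 0.23 at 6 h and 0.22 at 24 h. The change was 0.97, 1.12 and 0.89 in pig 2 and 0.97, 0.76 and 1.03 in pig 3. The pigs thus agreed in direction and differed several-fold in size. Without the 20 min array of pig 1 the mean log2 change was 0.95, 0.96 and 0.97 at 2 h, 6 h and 24 h and the set passed (limma adjusted p = 0.0361, 0.0202 and 0.0146). That fit called 29, 46 and 40 probe sets in all, and in it the change rests on pigs 2 and 3. Without the whole of pig 1 the change was 0.97, 0.94 and 0.96 and the set did not pass (limma adjusted p = 0.177, 0.250 and 0.171).

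Between the later times 0 of the 5 member sets passed in limma, against 0% of all probe sets in each of these comparisons. For the brighter HSPB6 set the differences were smaller than the spread between pigs. The log2 change was 0.01 ± 0.19 between 6 h and 2 h, 0.01 ± 0.26 between 24 h and 6 h, and 0.02 ± 0.09 between 24 h and 2 h (SD, n = 3). For 24 h against 2 h, the 95% interval of the fold ran from 0.794 to 1.29.

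The dimmer HSPB6 set gave a similar picture at 2 h and 6 h and a less even one at 24 h. Its log2 levels in pigs 1, 2 and 3 were 10.01, 9.48 and 8.91 at 20 min, 10.22, 10.23 and 10.34 at 2 h, 10.31, 10.72 and 9.77 at 6 h, and 9.66, 10.45 and 9.76 at 24 h. All 3 pigs at 2 h lay above all 3 at 20 min, a separation in this direction that 4.2% of all probe sets showed. It was the only separation of a later time from 20 min among the members: 0 of 5 sets were apart and higher at 6 h (background 4.24%) or 24 h (6.99%), and 0 of 5 were apart and lower at 2 h (3.48%), 6 h (3.81%) or 24 h (4.72%). At 24 h pig 1 was below its own 20 min level and pigs 2 and 3 were above theirs. The log2 change was 0.79 ± 0.62 at 2 h, 0.80 ± 0.47 at 6 h and 0.49 ± 0.73 at 24 h (SD, n = 3), or 1.73-fold, 1.74-fold and 1.41-fold. None passed (limma adjusted p = 0.579, 0.488 and 0.396). At 6 h its mean change was the highest of all 23999 probe sets. The 24 h change depended on the pig, at 0.91 without pig 1, 0.25 without pig 2 and 0.31 without pig 3. The brighter and dimmer sets correlated with r = 0.85 over the 12 arrays after the mean of each pig was subtracted, a description of arrays that share pigs and times.

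HSPB1 had log2 levels of 13.26, 13.81 and 13.55 at 20 min, 13.16, 13.77 and 13.60 at 2 h, 13.26, 13.82 and 13.53 at 6 h, and 13.04, 13.75 and 13.40 at 24 h in pigs 1, 2 and 3. The times overlapped throughout, and the pigs kept the order pig 2, pig 3, pig 1 at each of them. The log2 change was -0.03 ± 0.08 at 2 h, -0.004 ± 0.01 at 6 h and -0.14 ± 0.08 at 24 h (SD, n = 3). The 24 h level was the lowest of the course in all 3 pigs, and its difference from 20 min did not pass (limma adjusted p = 0.441). The 95% interval of the fold ran from 0.874 to 1.10 at 2 h, 0.888 to 1.12 at 6 h and 0.806 to 1.02 at 24 h.

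The brighter CRYAB set was as even. Its log2 levels in pigs 1, 2 and 3 were 13.60, 13.92 and 13.69 at 20 min, 13.61, 13.90 and 13.83 at 2 h, 13.56, 13.88 and 13.81 at 6 h, and 13.42, 13.87 and 13.84 at 24 h. The order of the pigs was that of HSPB1 and the times overlapped. The log2 change was 0.05 ± 0.08 at 2 h, 0.02 ± 0.09 at 6 h and -0.03 ± 0.17 at 24 h (SD, n = 3; limma adjusted p = 0.895, 0.968 and 0.913). The 95% interval of the fold at 24 h ran from 0.867 to 1.11. The residual SD of the model was 0.0527 for HSPB1 and 0.0724 for this set on the log2 scale, below the median of 0.126 over all probe sets, and 0.246 for the brighter HSPB6 set. HSPB1 and this CRYAB set lay near the top of the range of the array, and whether the scanner signal was compressed there was not tested.

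The dimmer CRYAB set had another course than the brighter one. Its log2 levels in pigs 1, 2 and 3 were 5.64, 9.03 and 6.72 at 20 min, 5.00, 7.85 and 6.43 at 2 h, 5.39, 6.93 and 6.34 at 6 h, and 5.47, 8.05 and 6.25 at 24 h. Pig 2 was the highest and pig 1 the lowest at every time, so that the times overlapped. The log2 change was -0.70 ± 0.44 at 2 h, -0.91 ± 1.03 at 6 h and -0.54 ± 0.41 at 24 h (SD, n = 3), lower in 3 of 3 pigs each time. None passed (limma adjusted p = 0.608, 0.488 and 0.415). In pig 2 alone the 6 h change was -2.10, against -0.25 in pig 1 and -0.39 in pig 3, and without pig 2 the mean was -0.32. Without only the 20 min array of pig 2 the change was -0.35, -0.56 and -0.19 at 2 h, 6 h and 24 h. With pig means subtracted, this set correlated over the 12 arrays with r = -0.10 with the brighter CRYAB set, -0.53 with the HSPB2 set and -0.77 with the brighter HSPB6 set.

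The identifier of the dimmer set (Ssc.19588.2.A1_at) shares its cluster number with the set annotated to HSPB2 (Ssc.19588.1.S1_at), another small heat shock protein gene. In the Sscrofa11.1 RefSeq gene table CRYAB and HSPB2 are neighbours whose annotated spans overlap by 3414 bases. Which transcript the dimmer set measures was not tested, as its probe sequences were not used here.

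**Figure D2:**
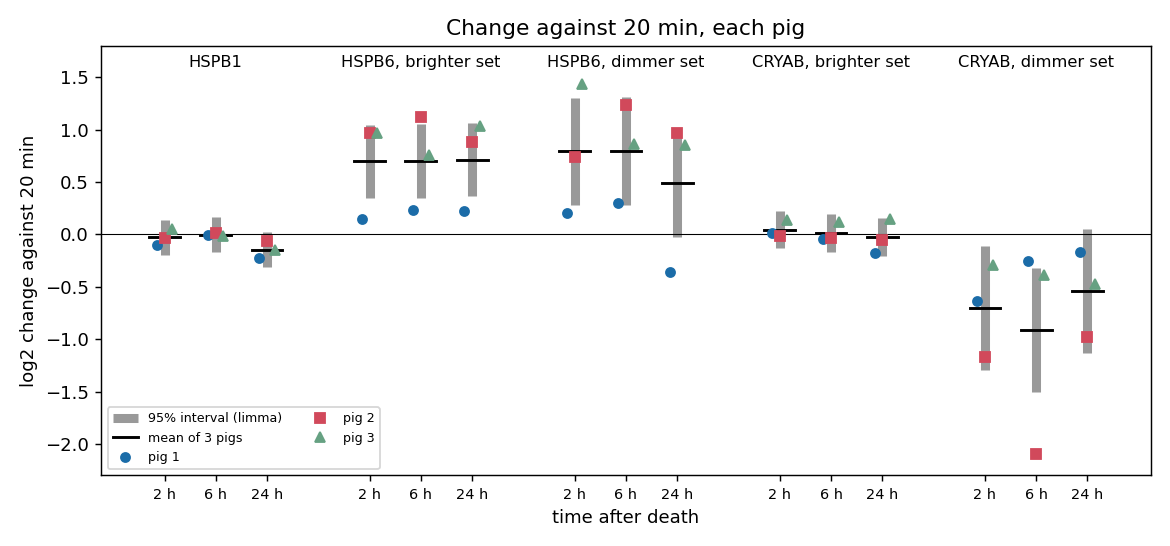
Log2 change against 20 min of the 5 member probe sets at 2 h, 6 h and 24 h; symbols are single pigs, black bars the mean of 3 pigs and grey bars the 95% interval from limma. Both HSPB6 sets lie above 0 at 2 h and 6 h with pig 1 (blue circles) the lowest, HSPB1 and the brighter CRYAB set lie close to 0, and the dimmer CRYAB set lies below 0 in all 3 pigs.

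Set against HSPB1 or the brighter CRYAB set within a pig, the brighter HSPB6 set had the higher change in every pig. The dimmer HSPB6 set did not at 24 h, when its change of -0.35 in pig 1 was below the -0.22 of HSPB1 and the -0.18 of the brighter CRYAB set. The log2 change of the brighter HSPB6 set minus that of HSPB1 was 0.25, 1.01 and 0.91 in pigs 1, 2 and 3 at 2 h and 0.44, 0.95 and 1.18 at 24 h. Minus that of the brighter CRYAB set, it was 0.13, 0.99 and 0.83 at 2 h and 0.40, 0.94 and 0.88 at 24 h. HSPB1 minus the brighter CRYAB set stayed small, with differences of -0.12, -0.01 and -0.09 at 2 h and -0.04, -0.01 and -0.30 at 24 h. These differences between genes were not tested.

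For HSPB1 and CRYAB the pigs lay further apart than the times. The means of the 3 pigs over all times spanned 0.603 log2 units for HSPB1 and 0.347 for the brighter CRYAB set, whereas the means of the 4 times spanned 0.143 and 0.073. For the brighter HSPB6 set the spans were 0.837 between pigs and 0.714 over time. A time span wider than this was seen at 0.396% of all probe sets. The dimmer HSPB6 set went the other way, with spans of 0.527 between pigs and 0.797 over time. Over all probe sets the median span was 0.181 between pigs and 0.171 over time. HSPB1 and both CRYAB sets held the pig order pig 2, pig 3, pig 1 at all 4 times, an order kept by 0.996% of all probe sets and singled out here after its values were seen. HSPB3, another small heat shock protein gene, held that order too. An unchanged order of the pigs, whichever it was, was seen at 6.04% of all probe sets.

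Of 8 other small heat shock protein genes looked for, 6 were on the array and 0 passed at any time. HSPB7, a small heat shock protein of heart and skeletal muscle, had the highest changes of them, at 0.27 ± 0.38, 0.36 ± 0.35 and 0.33 ± 0.53 on the log2 scale at 2 h, 6 h and 24 h (SD, n = 3). Its change in pigs 1, 2 and 3 was -0.13, 0.62 and 0.32 at 2 h, and -0.27, 0.52 and 0.73 at 24 h, so pig 1 was again the lowest. With pig means subtracted it correlated with the brighter HSPB6 set with r = 0.85 over the 12 arrays. HSPB8, which works with the cochaperone BAG3 in clearing damaged proteins, had a log2 change of -0.24 ± 0.11 at 24 h, lower in 3 of 3 pigs, and it correlated with HSPB1 with r = 0.91 in the same way. It was the 1 gene of the 6 with an unadjusted limma p under 0.05 at 24 h (0.018). Of 6765 genes, each taken at its brightest probe set, 8.71% were lower and 6.28% higher at that p.

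HSPB2, which binds the myotonic dystrophy kinase, had log2 changes of 0.07 ± 0.15, 0.11 ± 0.12 and -0.01 ± 0.20 at 2 h, 6 h and 24 h. HSPB3, found mainly in muscle, had -0.04 ± 0.13, -0.08 ± 0.18 and -0.02 ± 0.14. HSPB11, a part of the intraflagellar transport machinery, had -0.04 ± 0.24, -0.02 ± 0.14 and -0.04 ± 0.11. ODF1, a sperm tail protein, was dim, with log2 levels between 4.10 and 4.74, and had changes of -0.02 ± 0.11, 0.10 ± 0.33 and 0.18 ± 0.14 (all SD, n = 3). The median log2 change of the 6 genes was -0.03 at 2 h, 0.04 at 6 h and -0.02 at 24 h. The median over all probe sets was -0.0002, -0.01 and 0.01.

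**Figure D3:**
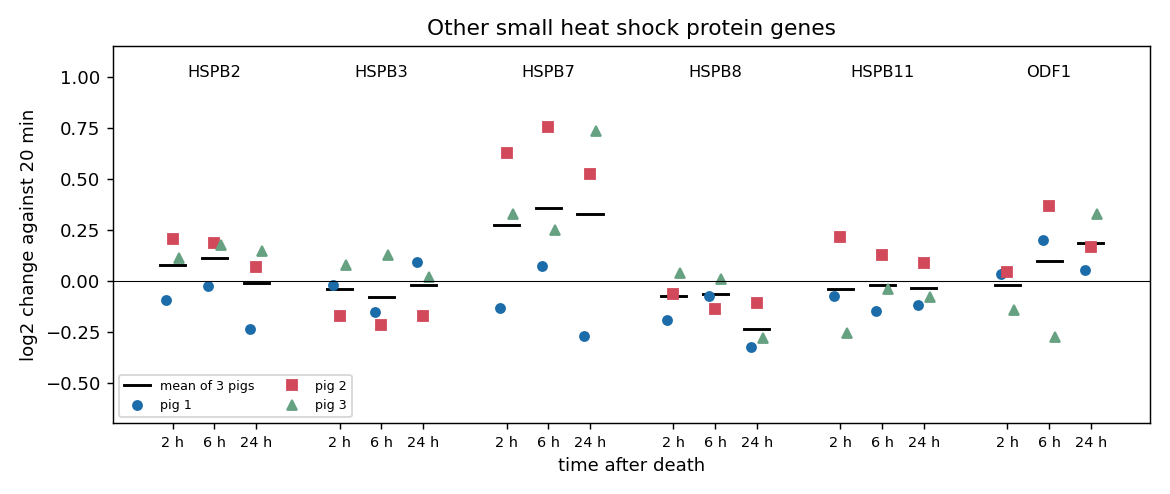
Log2 change against 20 min of 6 other small heat shock protein genes at 2 h, 6 h and 24 h; symbols are single pigs and black bars the mean of 3 pigs. HSPB7 has the highest means and its pig 1 values lie below those of pigs 2 and 3, and HSPB8 is below 0 in all 3 pigs at 24 h.

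Kinases and binding partners of the small heat shock proteins were on the array for 13 of 19 genes listed, and 0 passed. An unadjusted p under 0.05 was seen for 2 higher genes at 2 h, 2 at 6 h and 1 at 24 h, and for 0 lower ones. Over 6765 genes, each taken at its brightest probe set, 4.02%, 4.82% and 6.28% were higher at that p. The median log2 change of the list was 0.03, 0.04 and 0.03 at 2 h, 6 h and 24 h. PRKACA, the catalytic subunit of the protein kinase A that phosphorylates HSPB6, had log2 changes of 0.22 ± 0.14, 0.20 ± 0.17 and 0.15 ± 0.12 at the 3 later times. YWHAZ, a 14-3-3 protein, had 0.44 ± 0.26, 0.27 ± 0.14 and 0.29 ± 0.21 (SD, n = 3), and both were higher in 3 of 3 pigs each time. The YWHAZ set was dim, with a mean log2 level of 5.87. The other 14-3-3 genes of the list on the array had log2 changes at 2 h of -0.18 (YWHAQ), -0.12 (SFN), 0.01 (YWHAE), 0.03 (YWHAH) and 0.11 (YWHAB). STUB1, a ubiquitin ligase that works with chaperones, had 0.12 ± 0.06, 0.18 ± 0.15 and 0.03 ± 0.11. MAPK14, the p38 kinase upstream of MAPKAPK2, had -0.07 ± 0.03, -0.01 ± 0.02 and -0.13 ± 0.06.

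The cytoskeletal and sarcomeric clients of these chaperones had median log2 changes of 0.04, 0.01 and -0.01 at the 3 later times. Of 14 listed, 11 were on the array and 0 passed. The 1 gene with an unadjusted p under 0.05 at 6 h and at 24 h was desmin, which was higher. Of 6765 genes, each taken at its brightest probe set, 4.82% were higher at that p at 6 h and 6.28% at 24 h. DES had log2 changes of 0.17 ± 0.13, 0.20 ± 0.12 and 0.19 ± 0.17 at 2 h, 6 h and 24 h, with 0.02, 0.25 and 0.25 in pigs 1, 2 and 3 at 2 h. ACTN2, the actinin of the Z-disc, had 0.18 ± 0.22, 0.20 ± 0.19 and 0.12 ± 0.25, again with pig 1 the lowest. The giant spring protein gene TTN had 0.02 ± 0.08, 0.001 ± 0.06 and 0.09 ± 0.02, and the actin capping gene CAPZB 0.10 ± 0.12, 0.08 ± 0.16 and -0.02 ± 0.13 (all SD, n = 3).

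Heat shock factors and other chaperones had medians below 0. Of 25 listed, 19 were on the array and 0 passed. Their median log2 change was -0.05 at 2 h, -0.04 at 6 h and -0.09 at 24 h. A higher mean at 24 h was seen for 6 of 19, against 47.2% of 6765 genes, each taken at its brightest probe set. An unadjusted p under 0.05 was seen for 0 genes at 2 h and 6 h and for 5 at 24 h, all lower, where 8.71% of all genes were. These were HSPH1 and HSPA2 of the HSP110 and HSP70 families, the HSP40 cochaperones DNAJA1 and DNAJB1, and the heat shock factor HSF2. Their log2 changes at 24 h were -0.39 ± 0.14 for HSPH1, -0.33 ± 0.15 for HSPA2, -0.29 ± 0.15 for DNAJA1, -0.36 ± 0.09 for HSF2 and -0.37 ± 0.57 for DNAJB1 (SD, n = 3). The first 4 were lower in 3 of 3 pigs and DNAJB1, named after its values were seen, in 2 of 3.

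Fibre type and cell type lists moved beside HSPB6 in some pigs. Of 8 slow fibre genes on the array, 7 had a higher mean at each later time, against 47.5%, 48.7% and 47.2% of all genes at 2 h, 6 h and 24 h. The list mean of the log2 change in pigs 1, 2 and 3 was 0.03, 0.22 and 0.32 at 2 h, -0.01, 0.29 and 0.30 at 6 h, and -0.04, 0.25 and 0.27 at 24 h. This is the same ranking of pig 1 below pigs 2 and 3 as in HSPB6. An unadjusted p under 0.05 was seen at 2 h for 4 of the 8, against 4.02% of all genes that were higher at that p. They were the slow contractile genes MYL3, TNNI1 and TNNC1 and the calcium pump gene ATP2A2, named after their values were seen, and 0 passed. The median log2 change of the 8 genes was 0.18 at 2 h, 0.16 at 6 h and 0.19 at 24 h. The list mean of the log2 level spanned 12.90 to 13.23 at 20 min, 13.23 to 13.26 at 2 h, 13.21 to 13.32 at 6 h and 13.18 to 13.27 at 24 h. The 7 fast fibre genes had list means of 0.02, -0.05 and -0.04 at 2 h and 0.02, -0.03 and -0.10 at 24 h.

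Of 8 fibroblast and matrix markers, 8 had a lower mean at 2 h, when 47.5% of all genes had a higher one. Their list means of the change were 0.08, -0.24 and -0.62 in pigs 1, 2 and 3. These were 0.17, -0.14 and -0.62 at 6 h and 0.11, -0.04 and -0.60 at 24 h. The list mean of the log2 level spanned 8.40 to 9.28 at 20 min, 8.16 to 8.76 at 2 h, 8.26 to 8.84 at 6 h and 8.35 to 8.78 at 24 h. Macrophage and leukocyte markers (8 genes) had 0.13, 0.09 and -0.62 at 2 h. They had 0.19, 0.28 and -0.46 at 6 h and -0.29, -0.26 and -1.20 at 24 h. At an unadjusted limma p under 0.05, 5 of these 8 were lower and 1 higher at 24 h. Among all genes 8.71% were lower and 6.28% higher at that p. Smooth muscle and pericyte markers, of interest because HSPB6 and HSPB1 are also abundant in vessel walls, had 0.03, 0.08 and -0.05 at 2 h, 0.06, 0.14 and -0.05 at 6 h and 0.03, 0.31 and -0.23 at 24 h (7 genes). Their list mean of the log2 level spanned 9.51 to 9.74 at 20 min and 9.51 to 9.94 at 24 h. Within them SMTN and RGS5, named after their values were seen, had an unadjusted p under 0.05 at every later time, with log2 changes of 0.33 and 0.20 at 2 h. Higher at that p were 4.02%, 4.82% and 6.28% of all genes at 2 h, 6 h and 24 h. The means of 4 of the 7 were lower at 2 h, with PDGFRB at -0.13, CNN1 at -0.13, ACTA2 at -0.12 and TAGLN at -0.02. Endothelial markers (10 genes) had 0.02, 0.21 and 0.14 at 2 h, 0.01, 0.37 and 0.15 at 6 h and 0.01, 0.31 and -0.13 at 24 h. At 6 h 10 of the 10 had a higher mean, against 48.7% of all genes, and the order of the pigs was that of HSPB6. Adipocyte markers (6 genes) had -0.003, -0.11 and -0.28 at 2 h. They had -0.01, 0.07 and -0.43 at 6 h and -0.12, 0.10 and -0.48 at 24 h. Erythroid and blood markers (3 genes) had -0.05, 0.16 and -0.05 at 2 h. Their values were -0.06, 0.13 and -0.05 at 6 h and -0.14, 0.11 and 0.01 at 24 h. The part of fibre type or of other cells in the HSPB6 result was not tested.

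RNA quality can be read from control probe sets for the 3′ and 5′ ends of a transcript. For EF1A the 3′ minus 5′ log2 difference moved, relative to 20 min, by 0.08, 0.49 and 0.26 in pigs 1, 2 and 3 at 2 h, by 0.06, -0.04 and 0.21 at 6 h, and by 0.38, -0.01 and 0.47 at 24 h. The same difference of the actin control moved by -0.22, 0.31 and -0.19 at 2 h, by -0.34, -0.20 and -0.01 at 6 h, and by 0.09, -0.23 and -0.04 at 24 h. That of the GAPDH control moved by between -0.09 and 0.06 over all pigs and later times. At 20 min the 3′ minus 5′ difference itself was 2.37, 2.23 and 2.33 for actin in pigs 1, 2 and 3. It was 0.48, 0.63 and 0.23 for EF1A and -0.23, -0.22 and -0.20 for GAPDH. The part of RNA quality in the HSPB6 result was not tested.

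**Figure D4:**
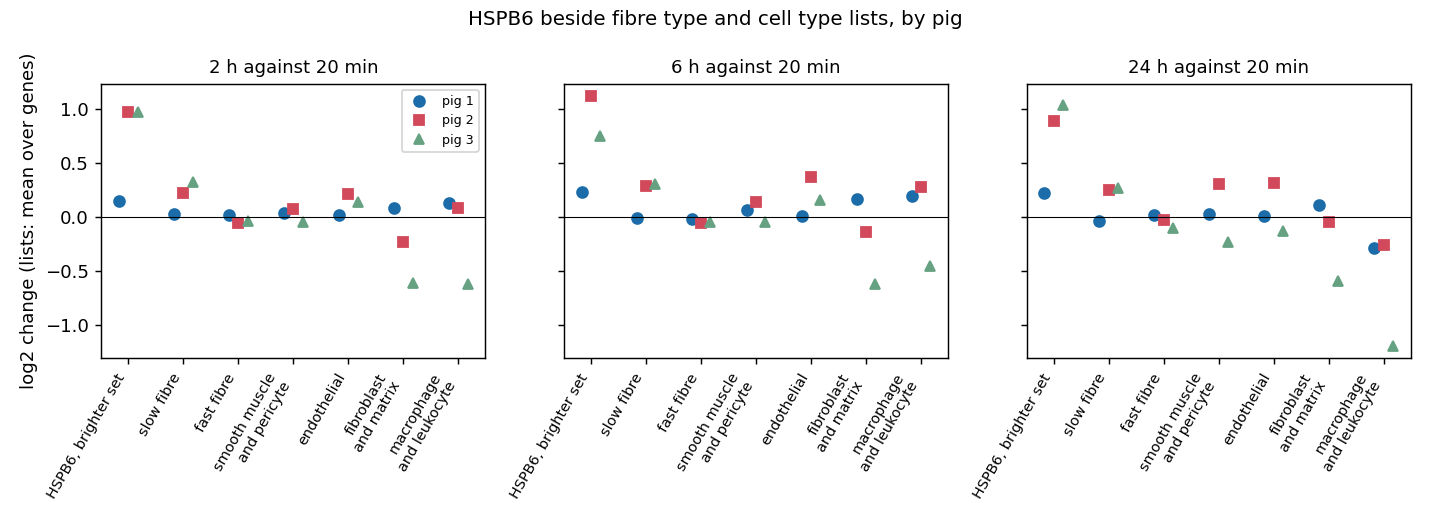
Log2 change against 20 min at 2 h, 6 h and 24 h for the brighter HSPB6 set and for the mean over the genes of 6 fibre type and cell type lists; each symbol is 1 pig. Pig 1 lies lowest for HSPB6 and for slow fibre genes, and pig 3 lies lowest for fibroblast, macrophage and leukocyte markers.

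The genes whose profiles were most like the brighter HSPB6 set were taken from 6429 probe sets with 1 gene symbol and at least the median mean level, by the Pearson correlation over 12 arrays with pig means subtracted. They were GGTA1P (r = 0.98), the annotation's symbol for the alpha-1,3-galactosyltransferase gene, VAMP2 (0.98), a vesicle fusion protein, ICA1 (0.98), and ECI2 and HADHA (0.97 each), enzymes of fatty acid oxidation. Their log2 changes at 2 h were 0.43, 0.30, 0.31, 0.28 and 0.31, smaller than that of HSPB6. Other probe sets of GGTA1P gave r = 0.93 and 0.58, those of ICA1 0.65 and 0.65 and that of ECI2 -0.04. Most of the spread of these profiles lies between the 20 min arrays of pigs 2 and 3 and the other arrays.

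For HSPB1 the nearest profiles were those of the zinc finger gene ZNF106 (r = 0.94), the ubiquitin ligase scaffold CUL2 (0.94), LOC100153598 (0.93), the splicing factor SNRNP40 (0.92) and the cargo lectin LMAN2 (0.92). Their log2 changes at 24 h lay between -0.45 and -0.15, beside -0.14 for HSPB1. Other probe sets of ZNF106 gave r = 0.28 and 0.30, those of SNRNP40 between -0.34 and 0.20, that of LMAN2 0.29 and that of LOC100153598 0.05. For the brighter CRYAB set they were the mitochondrial HSP40 cochaperone DNAJA3 (r = 0.91), the outer membrane channel VDAC2 (0.90), the bromodomain gene BRD7 (0.90), EI24 (0.89) and the small GTPase RAB18 (0.88). Other probe sets of VDAC2 gave r = 0.70, -0.11, -0.12 and -0.45, that of BRD7 gave -0.45 and those of EI24 0.50 and -0.13. The log2 changes of the 5 genes at 24 h lay between -0.11 and 0.02. Correlations of this kind describe arrays that share pigs and times.

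**Figure D5:**
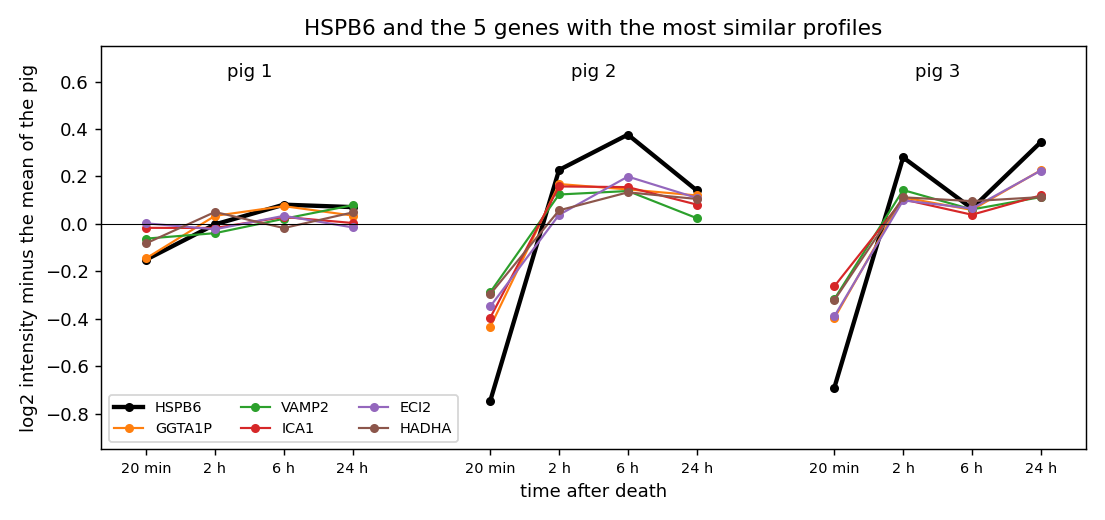
Log2 intensity minus the mean of the pig, at the 4 times in each of 3 pigs, for the brighter HSPB6 set (thick black line) and the 5 genes with the most similar profiles. In pigs 2 and 3 all 6 genes are lowest at 20 min, and in pig 1 they stay between -0.15 and 0.08.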

How the data were processed

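RNA from each of 12 muscle portions was measured on its own porcine Affymetrix array after biotin labelling, as the labels' protocols state. The log2 values were deposited after RMA with affy, per the submitters' processing notes, and neither version nor settings are given in the sources used here. RMA fits all arrays to 1 distribution, so a shift of all transcripts alike would not show. Of 24123 probe sets, 124 controls were left out, and all the other 23999 were tested whatever their level. Symbols came from the 2016 platform annotation. Lists used the probe set with the highest mean of each gene, matched by that symbol or through its gene ID by the current RefSeq symbol.

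Groups and pig numbers came from the titles. In R 4.3.3 with limma 3.58.1, a model of 4 times and pig as a fixed block gave each comparison, an F test over times and 95% intervals, with 6 residual and 5.67 prior degrees of freedom. Two-sided p-values were adjusted by Benjamini-Hochberg over all probe sets of a comparison (threshold 0.05); SDs are over the changes of 3 pigs. The design text says that the same pigs gave all times, and deviations from the time means correlated with r between 0.409 and 0.656 in the 18 pairs of arrays of 1 pig. With pig as a block, differences in level between the pigs are taken out. The p-values rest on the spread that is left, pooled over the 4 times and moderated by the prior. With 1 array for each pig and time, noise of portion and array is part of that spread, and 12 arrays limit the precision.

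All probe sets of the members were named. Of the other small heat shock protein genes all on the array were named, and of each pathway list the 4 with the smallest p of the F test; genes with the most similar profiles were the 5 highest correlations. Members and lists were chosen with earlier results of these data known. The model was tested on simulated data. Alternatives were leaving out the block, pig as a random effect (statmod 1.5.0), a filter on the dimmest 40%, centring on the 1000 brightest probe sets, cyclic loess, another prior, array weights, only the arrays compared, 1 probe set per gene, and leaving out each pig or array.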

Additional observations from a re-analysis of the deposited data

How the results depend on the processing

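Over 24 alternatives, 775 of 821 values kept their side of the threshold and any direction they had, 43 turned direction and 3 newly passed. The F tests have no direction and were judged by the threshold alone. Some alternatives leave every mean change as it was, so under them direction could not turn. These were no block, pig as a random effect, the filter, another prior, only the arrays compared and 1 probe set per gene. As first analysed, 0 of 35 results passed. The 3 that passed were the changes of the brighter HSPB6 set without the 20 min array of pig 1, as given with that result. When 1 pig or 1 array was left out, that set ranged from 0.553 to 0.972 at 2 h, 0.493 to 0.955 at 6 h and 0.554 to 0.967 at 24 h against 20 min (log2). Without the replicate block these changes were 0.697, 0.703 and 0.714 with limma adjusted p = 0.999, 0.999 and 0.805, and leaving out the block changed no call.

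The turns of direction were of changes near 0 or between later times. Between 6 h and 2 h the brighter and dimmer HSPB6 sets gave -0.0092 and -0.0163 with cyclic loess and -0.0010 and -0.0034 when centred on the brightest probe sets; HSPB1 at 6 h against 20 min gave 0.0167 with array weights. With 1 pig or array left out, HSPB1 ranged from -0.0703 to 0.0113 at 2 h and -0.0288 to 0.0218 at 6 h against 20 min, and -0.0147 to 0.0704 for 6 h against 2 h. The brighter HSPB6 set ranged from -0.129 to 0.116 for 6 h against 2 h, -0.0966 to 0.0936 for 24 h against 2 h and -0.123 to 0.146 for 24 h against 6 h, and the dimmer one from -0.239 to 0.292 for 6 h against 2 h. The brighter CRYAB set ranged from -0.0158 to 0.0864, -0.0469 to 0.0552 and -0.114 to 0.0507 at 2 h, 6 h and 24 h against 20 min, and -0.0963 to 0.0210 for 24 h against 6 h. The dimmer one ranged from -0.511 to 0.229 for 6 h against 2 h and -0.0702 to 0.629 for 24 h against 6 h. The cause was not tested. Signal over background is not given in the table used, so the dim sets have no stated detection limit.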
